A study of Mus musculus with 8 samples.

Results

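The genes described here encode the proteins of the cytosolic ribosome. They were chosen by symbol alone: rows of all 8 expression matrices whose symbol is Rpl or Rps followed by digits or p, without the Rps6k kinases. The rule gave 83 of 12962 genes, 50 of the large subunit (Rpl) and 33 of the small subunit (Rps) by name. One more symbol, Rpl3l, was a row of some matrices but not all and was left out. The rule is imperfect. It takes in Rps19bp1, whose product binds a ribosomal protein, and it misses some genes that also encode ribosome components, such as Rpsa, Fau and Rack1. It also leaves out 8 rows named as pseudogenes, of which Rpl9-ps6 and Rpl10-ps3 hold many UMIs, so values of Rpl9 and Rpl10 are uncertain.

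The study profiled single cells of tumors grown under the skin from MB49, a mouse urothelial carcinoma line. All hosts were C57BL/6 mice carrying UbcreERT2/+, a tamoxifen-inducible Cre driven in all tissues, and all received tamoxifen. Wild-type hosts were Atg7+/+ (libraries 1, 2, 5 and 6) and deleted hosts were Atg7f/f (libraries 3, 4, 7 and 8). Atg7 encodes an enzyme needed to form autophagosomes, and the tumor cells themselves were not of host origin and kept their own Atg7 in both groups. Mice received tamoxifen on 4 days and were injected 1 week later, with 2 tumors per mouse collected 3 weeks after injection. The labels do not tie tumors to animals, so the p-values measure the spread between libraries, some of which may share a mouse.

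Each ribosome contains a single copy of most of these proteins, and their mRNAs are among the most abundant in growing cells. Many of these mRNAs begin with a C followed by a run of pyrimidines, the terminal oligopyrimidine (TOP) tract, through which the mTORC1 kinase controls their translation. Autophagy can degrade whole ribosomes, a route called ribophagy.

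The tract was looked for in RefSeq promoter sequences (GRCm38.p6) as a C followed by at least 5 bases each C or T, on the gene's strand, beginning within 5 bases of the annotated start. Of the 83 genes, 63 had an entry, and 27 of these (42.9%) held such a tract, against 13.3% of the genes measured in all 8 matrices and 11.9% of all promoters in the table. A match describes these letters only, since annotated starts can lie some bases from the used ones. The sequences below are those of an abundant member and of the 2 paralog pairs on which results below turn. Each is 30 bases long, 5′ to 3′, with any tract in capitals.
Rps24, chr14:24490666-24490695, plus strand: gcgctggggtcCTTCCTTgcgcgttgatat
Rps27, chr3:90213631-90213660, minus strand: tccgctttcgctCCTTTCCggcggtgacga
Rps27l, chr9:66946074-66946103, plus strand: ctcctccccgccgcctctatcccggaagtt
Rpl22, chr4:152325714-152325743, plus strand: gccctgggaaaagcaatagctggccgatcg
Rpl22l1, chr3:28805496-28805525, plus strand: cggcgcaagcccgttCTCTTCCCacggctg
Within each of these pairs only 1 gene held the tract, Rps27 in one and Rpl22l1 in the other.

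Of 29496 deposited cells, 28577 were kept, and library totals over deposited cells ranged from 4371773 to 59235799 UMIs. Cells were clustered without the ribosomal protein genes and named from marker lists, and 8 classes had enough cells to compare. One of them, 3601 cells led by the chemokine gene Ccl12, stayed unnamed because its median depth was 0.318 of its libraries' medians and none of the monocyte/macrophage markers was among its 10 leading genes. In malignant urothelial-like cells Krt8, a keratin of simple epithelia, was at 8.10 to 16.7 UMIs per 10000, while the epithelial marker Epcam and the urothelial marker Krt20 were at 0 in every library. Over cells that were not malignant urothelial-like, the level of Atg7 itself spanned 0.140 to 0.406 UMIs per 10000 (wild-type libraries) and 0.0717 to 0.311 (deleted libraries). These ranges overlapped, and since counted reads can lie outside the deleted part, this level does not check the labels. The deposited barcodes split the libraries into 2 barcode sets, libraries 1 to 4 and 5 to 8, each with 2 libraries of each genotype. Pairs of libraries shared at most 46 barcodes, and at most 1 across sets. The labels name no batch, so the sets are called by their barcodes only.

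The share of a cell's UMIs that came from these 83 genes had class means from 3.23% to 25.1%, while genotype means within a class, pooled over the 2 barcode sets described below, differed by at most 2.91 percentage points. Averaged over libraries it was 25.1% ± 4.23 (SD, n = 7) in NK-like cells, 24.8% ± 8.57 (SD, n = 8) in malignant urothelial-like cells and 20.8% ± 5.10 (SD, n = 8) in T-like cells. Fibroblast-like cells had 15.5% ± 5.51 (SD, n = 8) and dendritic-like cells 15.4% ± 3.67 (SD, n = 7). The Ccl12-led cluster had 10.96% ± 1.88 (SD, n = 8) and monocyte/macrophage-like cells 10.7% ± 4.23 (SD, n = 8). Neutrophil-like cells stood lowest at 3.23% ± 0.652 (SD, n = 8), and their highest library (4.43%) lay below the lowest library of every other class. Classes were compared in pairs within libraries by a two-sided exact sign-flip permutation test. Of 28 pairs, 24 passed after Benjamini-Hochberg adjustment, and in 23 pairs every library ranked the classes the same way. The smallest p these libraries allow is 0.00781 with 8 and 0.0156 with 7.

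T-like cells had a lower share than NK-like cells in 7 of 7 libraries, by 3.98 percentage points ± 1.39 (SD of the difference; exact adjusted p = 0.0190). Malignant urothelial-like cells exceeded T-like cells in 8 of 8 libraries, by 4.01 percentage points ± 4.79 (exact adjusted p = 0.0168). The pairs that did not pass were malignant urothelial-like against NK-like (difference 0.331 percentage points ± 5.58), fibroblast-like against dendritic-like (0.931 ± 3.78), fibroblast-like against the Ccl12-led cluster (4.499 ± 4.15, exact adjusted p = 0.0525) and monocyte/macrophage-like against the Ccl12-led cluster (-0.225 ± 2.84). With cells of 1000 to 5000 UMIs only, 10 pairs could be compared and 7 passed, and with clustering at resolution 0.5, which gave 6 of the classes, 13 of 15 passed.

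**Figure D1:**
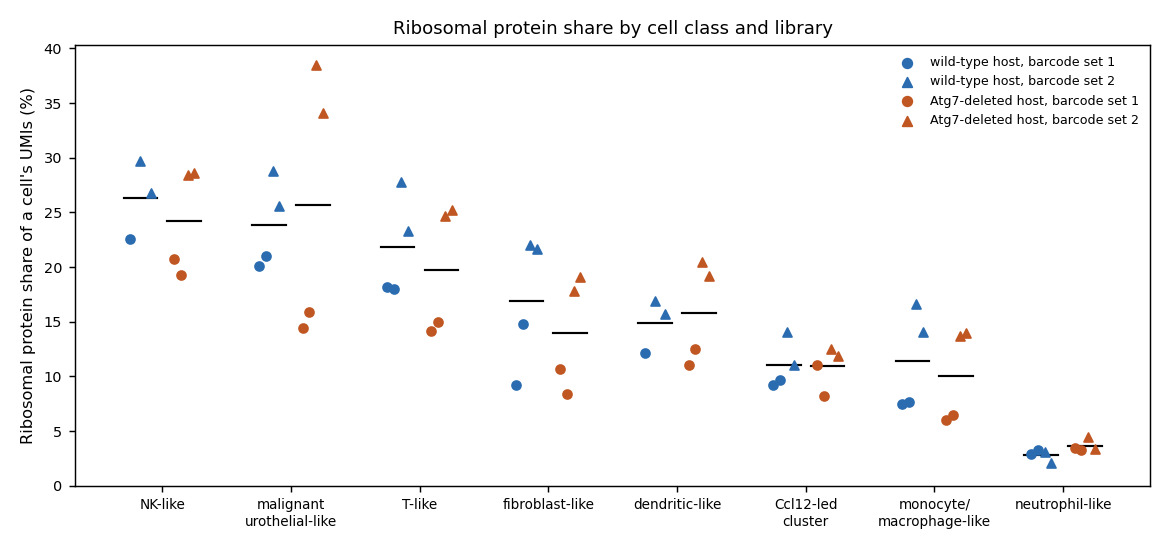
Ribosomal protein share of a cell's UMIs (%, vertical axis) by cell class; each point is 1 library, coloured by host genotype and shaped by barcode set, and bars are group means. Neutrophil-like cells lie between 2.06% and 4.43%, and triangles (set 2) lie above circles (set 1) in 7 of the 8 classes.

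Libraries of set 2 had a higher share than those of set 1 in 7 of the 8 classes, without overlap. In monocyte/macrophage-like cells set 1 spanned 6.03% to 7.63% and set 2 spanned 13.7% to 16.7%, so that the set means differed 2.11-fold. In T-like cells set 1 spanned 14.2% to 18.2% and set 2 spanned 23.3% to 27.7%. The same gap was seen in fibroblast-like (1.87-fold), malignant urothelial-like (1.78-fold), dendritic-like (1.52-fold) and NK-like cells (1.36-fold), and in the Ccl12-led cluster (1.29-fold). Neutrophil-like cells showed no such gap, with set means of 3.23% and 3.22%. Because each set holds both genotypes, the genotype comparison was also made within sets.

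Deleting Atg7 in the host was not accompanied by a difference in the ribosomal protein share that passed the test in any of the 8 classes. The design leaves little room for one: a single fully separated class could reach an adjusted p of no less than 0.229, and 5 such classes would be needed to pass. The class nearest to it was the neutrophil-like one. Its share was 2.95%, 3.26%, 3.05% and 2.06% in wild-type libraries 1, 2, 5 and 6 and 3.45%, 3.26%, 4.43% and 3.36% in deleted libraries 3, 4, 7 and 8. The groups met at 3.26%, where deleted library 4 lay just below wild-type library 2, with a mean difference of 0.793 percentage points (two-sided exact permutation p = 0.0571, adjusted p = 0.457). With cells of at least 500 genes the difference was -0.706 percentage points, so its direction was not stable.

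In T-like cells the share was 18.2%, 18.01%, 27.7% and 23.3% in wild-type libraries 1, 2, 5 and 6 and 14.2%, 14.9%, 24.7% and 25.3% in deleted libraries 3, 4, 7 and 8. The groups overlapped (mean difference -2.04 percentage points, exact permutation p = 0.571, adjusted p = 0.914). Within barcode set 1 both deleted libraries lay below both wild-type ones, while in set 2 they overlapped. In monocyte/macrophage-like cells the share was 7.47%, 7.63%, 16.7% and 14.03% against 6.03%, 6.49%, 13.7% and 13.96%, in the same order of libraries. Deleted values were lower within each set, by 1.29 percentage points in set 1 and by 1.53 in set 2. Permuting within sets gave an exact p of 0.0556, the smallest that this design allows, and an adjusted p of 0.296. Different clusters held most of this class in different libraries (cluster 5, led by Mmp13, in libraries 1 and 2; cluster 2, led by Mmp12, in library 4; clusters 13 and 21, led by Cbr2 and Ighg3, in library 3; cluster 7, led by Ifitm6, in wild-type libraries 5 and 6; cluster 8, led by Selenop, in deleted libraries 7 and 8). In set 2, cluster 7 held 63 of 75 and 61 of 91 cells of libraries 5 and 6, and cluster 8 held 26 of 50 and 407 of 550 cells of libraries 7 and 8, so the genotypes were compared over different clusters.

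Malignant urothelial-like cells, which carry no Atg7 deletion themselves, moved in opposite directions in the 2 barcode sets. The share was 20.1% and 21.1% in wild-type libraries 1 and 2 against 14.4% and 15.9% in deleted libraries 3 and 4. It was 28.8% and 25.6% in wild-type libraries 5 and 6 against 38.5% and 34.1% in deleted libraries 7 and 8. As means over cells, deleted libraries thus lay lower by 5.42 percentage points in set 1 and higher by 9.11 in set 2, without overlap in either. The pooled difference was 1.85 percentage points (exact permutation p = 0.771, adjusted p = 0.914).

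Within set 1, depth and markers of other cells moved with these malignant values. Libraries 3 and 4 held 41 and 151 such cells, with median depths of 2801 and 2112 UMIs, against medians of 15032.5 and 14811.5 in libraries 1 and 2. Median depths in set 2 overlapped, with 9613 and 16633 in libraries 5 and 6 and 15128 and 4681 in libraries 7 and 8. Fibroblast markers summed to 19.3 and 7.15 UMIs per 10000 in libraries 3 and 4 and to 0.0930 to 2.49 in wild-type libraries. Among cells of at least 10000 UMIs, the share was 24.99% in the 22 cells of library 4 against 21.7% and 21.1% in libraries 1 and 2, the other direction from that over all depths. In set 2 it was 38.9% and 33.2% in libraries 7 and 8 against 27.7% and 25.3% in libraries 5 and 6. In cells of 500 to 1000 UMIs library 4 had 15.3% against 12.9% and 13.3% in libraries 1 and 2. At 1000 to 2500 UMIs it had 14.2% against 13.9% and 15.4%, and at 2500 to 5000 UMIs 13.5% against 18.1% and 22.7%. With UMIs summed over cells, library 4 had 21.2%, between libraries 1 (21.7%) and 2 (21.1%), and library 3 had 16.0%. The mix of clusters in this class also differed. Cluster 1 had a median depth of 3240 UMIs, and the members Rpl22l1, Rpl30 and Rpl35 were among its 10 leading genes. It held 114 of 151, 74 of 108 and 64 of 105 cells in deleted libraries 4, 7 and 8. In deleted library 3 it held 13 of 41. In wild-type libraries 1, 2, 5 and 6 it held 260 of 1350, 114 of 1362, 794 of 4162 and 277 of 3239. Cluster 12, led by Ube2c, held 1578 and 1479 cells of libraries 5 and 6 but 5 and 1 of libraries 7 and 8. The part of these clusters was not tested.

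The mix of T cells differed between genotypes: 56.9% to 71.2% of T-like cells had a UMI of Cd8a or Cd8b1 and none of Cd4 in wild-type libraries, against 18.4% to 36.3% in deleted libraries. The share was therefore compared within each subset. In Cd8a or Cd8b1 cells the wild-type libraries had 22.2% ± 4.80 (SD, n = 4) and the deleted ones 22.7% ± 8.12 (SD, n = 4), a difference with an exact permutation p of 0.914. In Cd4 cells it was 22.1% ± 3.58 (SD, n = 3; library 1 had 7 such cells) and 17.7% ± 5.50 (SD, n = 4; exact permutation p = 0.286, adjusted p = 0.571).

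Among single members, the 5 with the highest levels over all classes were Rplp1, Rps24, Rpl37a, Rps20 and Rps29. UMIs count molecules and are not divided by length. Rplp1 encodes one of the stalk proteins that recruit elongation factors to the large subunit. It was at 83.0 ± 20.9 UMIs per 10000 (SD, n = 8) in malignant urothelial-like cells, 61.6 ± 7.79 (SD, n = 7) in NK-like cells and 8.79 ± 2.52 (SD, n = 8) in neutrophil-like cells. Its stalk partners ran the same way: Rplp0, the stalk base, was at 54.5 ± 16.4 (SD, n = 8) in malignant urothelial-like and 4.46 ± 2.07 (SD, n = 8) in neutrophil-like cells, and Rplp2 at 36.3 ± 14.8 and 7.86 ± 3.27. Rps24, a small subunit protein mutated in some patients with Diamond-Blackfan anemia, was at 79.6 ± 25.7 UMIs per 10000 (SD, n = 7) in NK-like cells and 4.04 ± 1.05 (SD, n = 8) in neutrophil-like cells.

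To compare the makeup of the ribosomal protein mRNA pool rather than its size, each member was expressed per 10000 ribosomal protein UMIs. The 8 members with the widest range between classes, among those found in at least 5% of the cells of every class, were Rps27l, Rps27, Rps9, Rpl10a, Rpl32, Rps18, Rps15a and Rps4x. Rps27l, a paralog of Rps27 known as a p53 target, made up 84.5 ± 28.3 per 10000 ribosomal protein UMIs in dendritic-like cells (SD, n = 7). It made up 16.96 ± 4.70 in T-like cells (SD, n = 8) and 11.8 ± 5.38 in NK-like cells (SD, n = 7). Its lowest dendritic-like library, at 40.2, was above the highest T-like one, at 25.5. Rps27 itself had its highest value in neutrophil-like cells, 536 ± 277 (SD, n = 8), where every library (301 to 1055) exceeded the malignant urothelial-like ones (48.0 to 187).

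Neutrophil-like cells also differed in other members. Rps9, a small subunit protein, was at 455 ± 232 per 10000 ribosomal protein UMIs (SD, n = 8) there, 273 ± 62.6 in monocyte/macrophage-like and 121 ± 16.6 in malignant urothelial-like cells. Rps4x, the X-linked copy of the small subunit protein S4, was at 65.9 ± 25.1 in neutrophil-like cells and between 126 and 166 on average in the other classes. Rpl10a was at 27.1 ± 10.2 in neutrophil-like cells against averages of 52.8 to 76.9 elsewhere. Rpl32 was highest in malignant urothelial-like cells, 266 ± 41.9 against 95.0 ± 27.4 in neutrophil-like cells. Rps15a was highest in T-like and NK-like cells, at 254 ± 49.4 and 226 ± 37.7, and Rps18 in NK-like and malignant urothelial-like cells, at 132 ± 16.2 and 125.5 ± 30.01. Members were ranked on these values, so they are a description and were not tested.

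**Figure D2:**
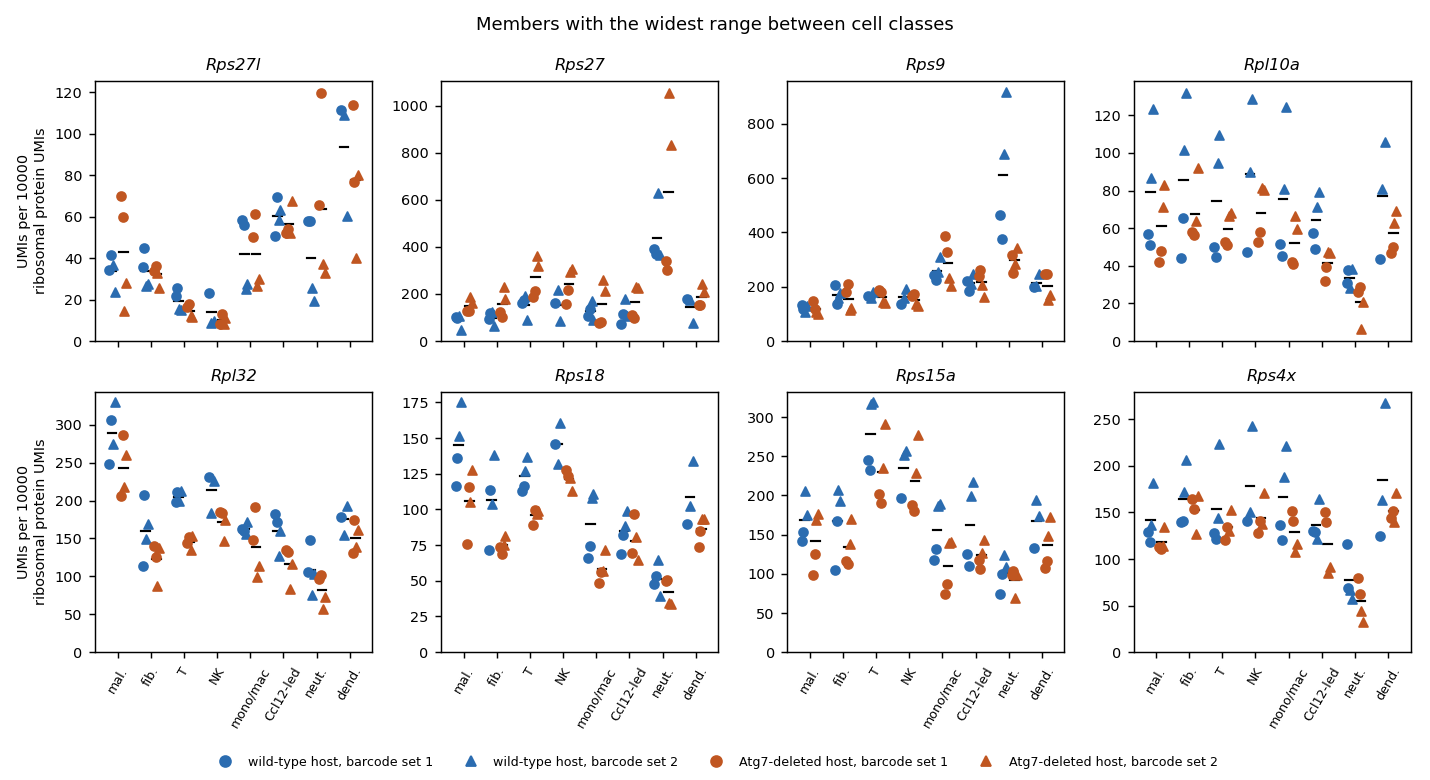
Each panel shows 1 gene in UMIs per 10000 ribosomal protein UMIs (vertical axis) by cell class (mal., malignant urothelial-like; fib., fibroblast-like; neut., neutrophil-like; dend., dendritic-like); points are libraries and bars group means. Rps27 and Rps9 are highest in neutrophil-like cells, Rpl32 in malignant urothelial-like cells, and Rps27l averages highest in dendritic-like cells.

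Pairs of members with like names were compared where both were measured, 6 in all, of which Rpl13 and Rpl13a are not close relatives. Rpl22 binds RNA and is needed for the development of alpha-beta T cells, and Rpl22l1 is its near relative. In malignant urothelial-like cells the level of Rpl22l1 divided by that of Rpl22 was 1.59, 1.85, 1.72 and 1.86 in wild-type libraries 1, 2, 5 and 6. It was 0.566, 0.735, 1.17 and 0.959 in deleted libraries 3, 4, 7 and 8, below every wild-type library. The malignant urothelial-like cells of libraries 3 and 4 are those with lower depth and more fibroblast marker UMIs, as given above, whose part in the ratio was not tested. Rpl22l1 was among the 10 leading genes of cluster 1, which held most malignant urothelial-like cells of libraries 4, 7 and 8. The part of that cluster in the ratio was not tested either. In T-like, NK-like, dendritic-like, fibroblast-like and monocyte/macrophage-like cells and in the Ccl12-led cluster, Rpl22 exceeded Rpl22l1 in every library. T-like ratios ran from 0.439 to 0.542 in wild-type and from 0.249 to 0.373 in deleted libraries, without overlap. The groups also did not overlap in fibroblast-like, monocyte/macrophage-like and dendritic-like cells. They overlapped in NK-like cells (0.352 to 0.695 against 0.342 to 0.436) and in the Ccl12-led cluster (0.314 to 0.785 against 0.153 to 0.330). In neutrophil-like cells, where both genes were low, ratios ran from 0.937 to 3.02 in wild-type and from 0.130 to 0.661 in deleted hosts. The ratio was noticed in the data and not tested as such. Neither gene passed alone in malignant urothelial-like cells: with a barcode set term limma gave a log2 difference of -0.54 ± 0.28 (SE) for Rpl22l1 (adjusted p = 0.406) and 0.53 ± 0.23 for Rpl22 (adjusted p = 0.297).

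**Figure D3:**
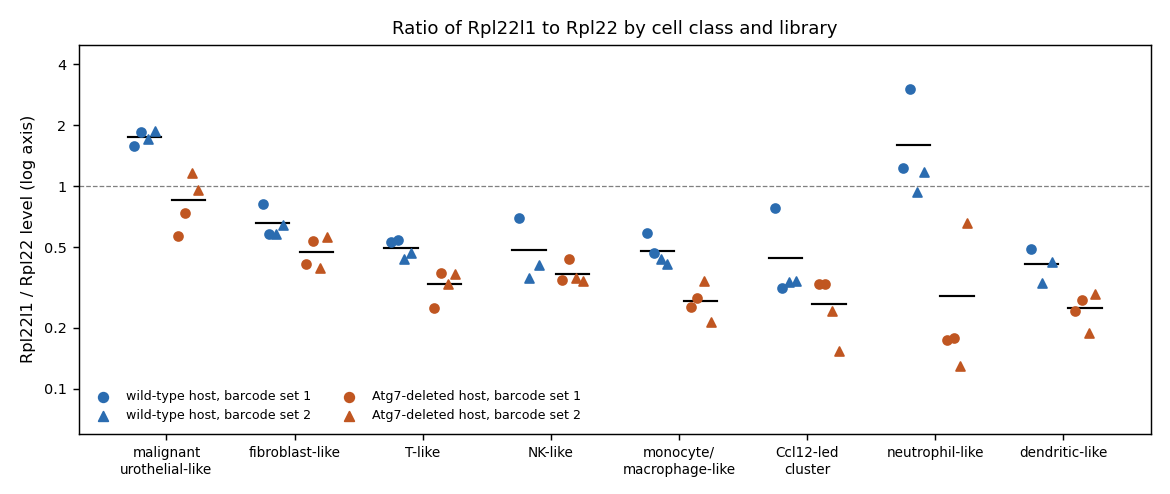
Level of Rpl22l1 divided by that of Rpl22 (log axis) by cell class; points are libraries, bars are group means and the dashed line marks equal levels. Malignant urothelial-like cells of wild-type hosts lie between 1.59 and 1.86 and those of deleted hosts between 0.566 and 1.17, and the groups overlap in NK-like cells and the Ccl12-led cluster.

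The other pairs were one-sided. Rpl39l, a relative of Rpl39 best known from testis, was at 0.125 to 0.495 UMIs per 10000 in fibroblast-like cells, where all 8 libraries had UMIs, and at no more than 0.00896 in malignant urothelial-like cells. Rpl39 itself was at 14.5 to 55.6 in fibroblast-like cells. Rpl7l1, which acts in ribosome assembly, was at most 0.196 of Rpl7 in any class and library. Rpl36al was below Rpl36a in all libraries of malignant urothelial-like, fibroblast-like, T-like and NK-like cells and of the Ccl12-led cluster, and above it in 1 library each of dendritic-like, monocyte/macrophage-like and neutrophil-like cells, all from wild-type library 6. Rpl13a was below Rpl13 in every class and library, and it moved with the barcode set.

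Testing every gene in each class with limma, without a batch term, called none of the members in any of the 8 classes at an adjusted p of 0.05 (80 to 83 members tested per class). At an unadjusted p under 0.05 there were 13 of 80 in neutrophil-like cells (17.2% of all genes), 5 of 82 in T-like cells (15.1%), 4 of 82 in dendritic-like cells (11.4%), 3 of 82 in monocyte/macrophage-like cells (8.72%) and 3 of 80 in the Ccl12-led cluster (4.58%). There was 1 of 83 in fibroblast-like cells (10.2%) and 0 of 82 in NK-like (6.58%) and malignant urothelial-like cells (10.3%). In each class the members' share was below that of all genes. Adjusted calls in either direction over all genes tested were 0.986% in T-like, 0.708% in neutrophil-like, 0.345% in malignant urothelial-like, 0.273% in dendritic-like, 0.0979% in fibroblast-like and 0.0569% in NK-like cells, and 0.0% in monocyte/macrophage-like cells and the Ccl12-led cluster.

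With a barcode set term, 6 of 82 members passed in T-like cells and none in the other classes. At an unadjusted p under 0.05 this limma fit gave 36 of 82 members in monocyte/macrophage-like cells (16.1% of all genes), 33 of 82 in T-like (22.8%), 21 of 80 in neutrophil-like (23.6%) and 15 of 82 in dendritic-like cells (14.3%). It gave 13 of 83 in fibroblast-like (13.8%), 9 of 82 in NK-like (8.93%) and 7 of 82 in malignant urothelial-like cells (14.6%) and 9 of 80 in the Ccl12-led cluster (7.27%). The members' shares were 43.9% in monocyte/macrophage-like and 40.2% in T-like cells, and 8.54% to 26.2% in the others. The clusters of the monocyte/macrophage-like class and the mix of T cells differed by genotype, as given above, and their part was not tested. Adjusted calls over all genes with the set term were 0.112% in monocyte/macrophage-like, 2.21% in neutrophil-like, 1.04% in dendritic-like, 0.326% in fibroblast-like, 0.185% in NK-like and 1.51% in malignant urothelial-like cells and 0.0% in the Ccl12-led cluster. Over all genes tested in T-like cells 2.26% were called lower and 3.25% higher with that term, 5.51% together, and 5 members were lower and 1 higher. Rpl28 (large subunit; mm10 chr7:4792874-4795066) had levels (UMIs per 10000) of 23.7, 22.2, 29.8 and 26.1 in wild-type libraries 1, 2, 5 and 6. Its levels in deleted libraries 3, 4, 7 and 8 were 11.5, 13.4, 17.4 and 18.7, with no overlap of the groups (log2 difference -0.75 ± 0.15 SE, limma adjusted p = 0.00794; 0.179 without the set term). Rpl15 (large subunit; chr14:18267823-18271391) had 14.6, 16.2, 20.4 and 26.6 against 8.01, 9.91, 14.1 and 17.3 in the same order of libraries. The groups overlapped across sets but not within either (log2 difference -0.68 ± 0.16, adjusted p = 0.0216).

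Rpl32 (large subunit; chr6:115805505-115808747) had 36.0, 38.0, 55.2 and 49.7 against 20.4, 22.6, 33.2 and 38.6, again separated within each set (log2 difference -0.66 ± 0.15, limma adjusted p = 0.0152). For Rps2 (small subunit; chr17:24718116-24721929), with 19.6 to 51.1 against 12.04 to 34.0, the change was -0.59 ± 0.15 (limma adjusted p = 0.0328), and for Rps18 (small subunit; chr17:33951999-33956001), with 20.5 to 35.2 and 12.6 to 24.9, it was -0.52 ± 0.15 (limma adjusted p = 0.0467). Rps27rt (chr9:114982366-114982739), a retrotransposed copy of Rps27, was the member that rose. Its levels were 6.04, 5.87, 0.751 and 0.307 against 8.78, 9.85, 1.16 and 1.17, far lower in set 2 for both genotypes (log2 difference 0.87 ± 0.21, limma adjusted p = 0.0235). Its value is uncertain, since its reads are nearly those of Rps27.

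**Figure D4:**
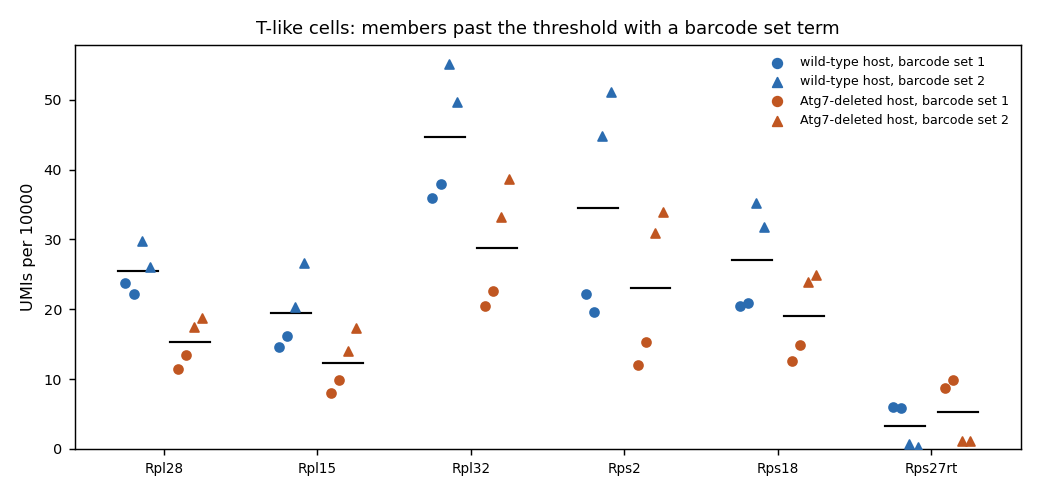
Levels in T-like cells (UMIs per 10000, vertical axis) of the 6 members past the threshold with a barcode set term; points are libraries, coloured by host genotype and shaped by barcode set, and bars are group means. Rpl28 runs from 22.2 to 29.8 in wild-type and from 11.5 to 18.7 in deleted libraries; Rps27rt stays between 0.307 and 1.17 in set 2.

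The number of these calls changed when 1 library was left out. Leaving out wild-type library 1 or 2 or deleted library 3, 4 or 7 left 1 member lower. Over all genes, 86 to 109 of 6975 to 7444 were lower in those fits. Leaving out deleted library 8 left 3, beside 133 of 7454 genes. Leaving out wild-type library 5 gave 13 (209 of 7427 genes) and leaving out wild-type library 6 gave 11 (95 of 7408). The 1 higher member was lost without deleted library 4, 7 or 8 or wild-type library 6. Over all genes, 98 to 255 were higher in the fits that left out 1 library. Rpl28 was called in each of these fits. Over them the log2 difference ran from -0.60 to -0.78 for Rpl15 and from -0.61 to -0.73 for Rpl32. It ran from -0.46 to -0.56 for Rps18, from -0.51 to -0.65 for Rps2 and from 0.61 to 1.03 for Rps27rt. Per 10000 ribosomal protein UMIs, 1 member was lower (Rpl28, log2 difference -0.59 ± 0.15, limma adjusted p = 0.0306) and 3 were higher. In that fit, also with the set term, 76 of all 6895 genes were lower and 386 higher. Cluster 20 of the T-like class had a median depth of 12922 UMIs. The malignant marker Mt3 stood beside Cd8a among its 10 leading genes. It held 2, 11, 50 and 31 cells of wild-type libraries 1, 2, 5 and 6. Deleted libraries 3, 4, 7 and 8 had 0, 1, 0 and 1 cells in it. The part of this cluster in the calls was not tested. The CD8 to CD4 mix also moved with genotype in the T-like class, so levels were also read within subsets. Among Cd4 cells Rpl28 had 17.7, 23.6 and 20.7 (wild-type libraries 2, 5 and 6) against 10.2, 9.25, 13.3 and 15.1 (deleted libraries 3, 4, 7 and 8), again without overlap. Among Cd8a or Cd8b1 cells Rpl28 was at 25.4, 24.1, 34.7 and 27.8 against 15.01, 17.3, 26.0 and 27.6. The groups overlapped across barcode sets but not within either, and the nearest values in set 2 were 27.8 and 27.6. Within set 2, Rpl32 overlapped in these cells (60.4 and 51.1 against 48.5 and 52.5). So did Rpl15 (22.3 and 28.3 against 19.5 and 23.1) and Rps18 (38.5 and 32.9 against 35.5 and 31.5). Rps2 (49.2 and 51.6 against 41.9 and 42.5) and Rps27rt (0.550 and 0.304 against 1.01 and 0.838) did not overlap there.

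Without any model, members were counted whose deleted libraries all lay on the same side of the wild-type libraries within both barcode sets. In monocyte/macrophage-like cells 34 of 82 members were lower in this sense, against 6.68% of all genes tested, and 4 were higher, against 9.3%. In T-like cells 31 of 82 were lower, against 6.79% of all genes, and 3 higher, against 11.7%. In neutrophil-like cells 22 of 80 were higher, against 15.1%, and 2 lower, against 5.8%. In NK-like cells 14 of 82 were lower, against 4.6%, and 2 higher, against 9.75%. In malignant urothelial-like cells 4 of 82 were lower, against 11.7%, and 4 higher, against 2.67%. The remaining classes had few such members in either direction. The Ccl12-led cluster had 8 of 80 lower (5.74% of all genes) and 2 higher (3.45%), fibroblast-like cells 6 of 83 lower (4.76%) and 1 higher (7.83%), and dendritic-like cells 2 of 82 lower (7.14%) and 10 higher (11.5%). Members of a class share the cells and the size of the pool, so they do not move independently. In monocyte/macrophage-like cells the genotypes were compared over different clusters, and in T-like cells the CD8 to CD4 mix moved with genotype, as given above. The part of these in the counts was not tested. Median log2 differences over members, each with that over all genes tested, were -0.35 (0.06) in monocyte/macrophage-like, -0.34 (0.07) in fibroblast-like, -0.18 (0.08) in T-like, -0.17 (0.11) in NK-like, -0.03 (-0.08) in malignant urothelial-like, -0.02 (0.11) in dendritic-like and 0.29 (0.16) in neutrophil-like cells and -0.11 (-0.10) in the Ccl12-led cluster. The neutrophil-like median was -0.15 with at least 500 genes per cell (0.32 over all genes) and -0.06 with median-ratio scaling (-0.19 over all genes), so its direction was not stable. The malignant urothelial-like median averages over 2 sets in which the share moved in opposite directions. With a genotype by barcode set interaction, limma gave 31 of 82 members there an unadjusted p under 0.05, beside 796 of 9262 genes. None passed after adjustment. The interaction term had a median of 0.70 over members and -0.26 over all genes. For this term monocyte/macrophage-like cells had 15 of 82 members under 0.05, beside 523 of 6227 genes. T-like cells had 13 of 82 (381 of 6895 genes). Dendritic-like cells had 8 of 82 (499 of 7320) and neutrophil-like cells 8 of 80 (149 of 2260). NK-like cells had 6 of 82 (355 of 7024) and fibroblast-like cells 3 of 83 (268 of 9190). The Ccl12-led cluster had 4 of 80 (187 of 3273).

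The makeup of the pool also varied with transcript length and library. The 10 members with the shortest annotated transcripts (among them Rps27, of 345 bases, Rpl38, Rps28 and Rps29) together held 12.9%, 13.4%, 10.7% and 5.50% of ribosomal protein UMIs in T-like cells of wild-type libraries 1, 2, 5 and 6. They held 14.6%, 14.9%, 17.4% and 14.97% in deleted libraries 3, 4, 7 and 8. Wild-type library 6 was the lowest library in 8 of 8 classes, with a median of 5.99% over classes, and deleted library 7 had the highest median, 18.5%. Rps29, at the small subunit head, was at 12.1 UMIs per 10000 in T-like cells of library 6 and at 31.6 to 71.0 in the others. Across 75 to 80 members, the within-set difference per 10000 ribosomal protein UMIs had a Spearman correlation with transcript length of -0.36 to -0.47 in set 2 and -0.31 to 0.03 in set 1; genes within a library are not independent.

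**Figure D5:**
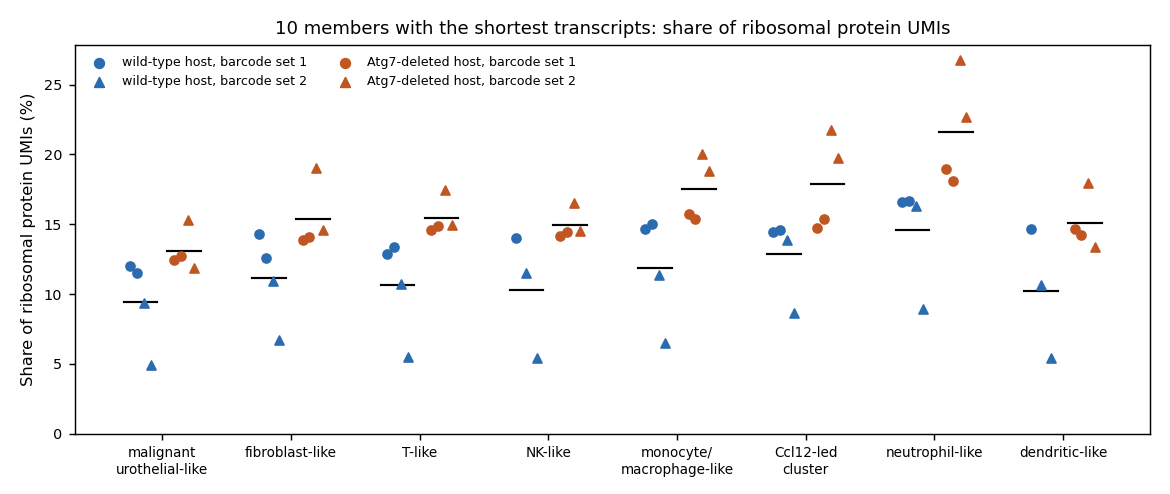
Share of ribosomal protein UMIs (%) held by the 10 members with the shortest transcripts, by cell class; points are libraries, coloured by genotype and shaped by barcode set, and bars are group means. The lowest point of each class is wild-type library 6, between 4.93% and 8.90%.

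In both barcode sets and all 8 classes, Rps21, Rpl35a and Rpl37a held a larger part of the pool in deleted than in wild-type libraries. Members that held a smaller part included Rpl15, Rpl22l1, Rpl28, Rplp0, Rps2 and Rps3. These are means of 2 libraries a side, except that library 2 stood alone for set 1 wild-type NK-like and dendritic-like cells, and were not tested. The 8 classes come from the same 8 libraries, so they are not independent. Median log2 differences of Rps21, Rpl35a and Rpl37a were 0.42, 0.14 and 0.42 in set 1 and 1.08, 0.98 and 0.87 in set 2. Rps21 is among the 10 shortest members, whose share was lowest in wild-type library 6 in every class. The part of transcript length and of single libraries was not tested. Some members differed mainly by barcode set. Per 10000 ribosomal protein UMIs, Rpl13a and Rpl35 were higher in set 2 in every class, with median log2 differences of 2.06 and 1.91. Rps27rt, Rps15, Rpl17 and Rpl23a were lower in every class, with medians of -3.60, -1.58, -1.49 and -1.21. Levels of these 6 members across libraries of different sets are therefore not comparable.

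Other genes of the pathway were counted in the same fits. Without a batch term none of the genes of the 7 lists passed in any class. With the set term, in T-like cells 4 of 71 mitochondrial ribosomal protein genes tested were lower, beside 2.26% of all genes: Mrpl17 (log2 difference -1.01 ± 0.22, limma adjusted p = 0.0136), Mrpl20 (-0.77 ± 0.18), Mrps24 (-0.75 ± 0.19) and Mrps17 (-0.71 ± 0.20). Their list had a median of -0.30, beside 0.08 over all genes. One of 12 elongation factor and other TOP mRNAs was lower in T-like cells, the nascent chain factor Btf3 (-0.61 ± 0.16, limma adjusted p = 0.0371), and 1 of 27 biogenesis genes was higher, Rrp9 (0.81 ± 0.23, adjusted p = 0.0455), a small nucleolar RNP protein. None of 19 initiation factor genes, 14 mTORC1 and MYC regulators, 9 quality control and turnover genes or the ribosome components outside the symbol rule passed in T-like cells.

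In malignant urothelial-like cells 2 of 17 mTORC1 and MYC regulators were lower with the set term and none were higher, beside 1.23% lower and 0.281% higher over all genes. Myc, the transcription factor that drives ribosome synthesis, had levels (UMIs per 10000) of 0.601, 0.659, 1.72 and 1.71 in wild-type libraries 1, 2, 5 and 6. Deleted libraries 3, 4, 7 and 8 had 0.253, 0.492, 0.460 and 0.359, below every wild-type library (log2 difference -1.26 ± 0.28, limma adjusted p = 0.0405). Eif4ebp1, an mTORC1 substrate that holds back cap-dependent translation, was at 4.09, 5.20, 2.88 and 6.25 against 1.29, 1.86, 2.04 and 2.29, without overlap (log2 difference -1.23 ± 0.26, limma adjusted p = 0.0340). Depth and fibroblast markers moved with genotype in these cells in set 1, and clusters 1 and 12 were unevenly held in set 2, as given above. The part of these in the differences was not tested. No list gene passed in the other 6 classes.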

How the data were processed

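Single-cell RNA was measured in 8 tumor libraries, 4 per host genotype. The values the authors deposited are on a natural log scale: a gene's UMIs per 10000 UMIs of its cell, plus 1, then logged. This was read from the values, since exp(value) - 1 sums to 10000 in every cell. Cell Ranger 2.1, Seurat 3.0 and mm10 are named per the submitters' processing notes; which step used which is not given in the sources used here. Whole UMIs were recovered for 100% of values within 0.01. The shallowest deposited cell held 498 UMIs; genes per cell ran from 201 to 5000, and mitochondrial UMIs reached 19.99%.

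Cells with at least 200 genes and at most 10% mitochondrial UMIs were clustered with scanpy 1.11.5 and igraph 0.11.9 (2000 variable genes, 30 components, 15 neighbors, Leiden resolution 1). Clusters were named from markers where at least 3 were detected in 10% of cells. No doublet filter was applied, so doublets remain. Names were rebuilt from markers and can differ from the study's own.

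Shares are means over cells of the linear share, in libraries with at least 20 cells of a class; wild-type library 1 was left out for NK-like and dendritic-like cells. They were compared over libraries by two-sided exact permutation, where 4 against 4 allows no p under 0.0286. Gene levels, as log2(mean UMIs per 10000 + 0.1), were tested with limma 3.58.1 (trend, Benjamini-Hochberg over all genes) for genes detected in 5% of cells in enough libraries to fill the smaller genotype group. Fold changes of low genes are understated by the pseudocount. The test was checked on simulated data with independent noise for each gene and library, which does not cover members that move together.

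Members named in the text were the calls of a class (up to 10 a direction), the 5 highest, the 8 of widest range, the paralog pairs, the stalk genes and up to 4 called genes per list. The other members named, for transcript length, the barcode sets and the pool's makeup, were chosen after their values were seen. The members and lists were chosen with earlier results of these data known. Positions are from GENCODE M21 (mm10). Some items are not reported here.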

Additional observations from a re-analysis of the deposited data

Results flagged for a closer look

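The ribosomal protein share of neutrophil-like cells was 4.43% in deleted library 7, far from the other deleted libraries (3.26% to 3.45%); this class had 39 cells there. About 1 in 20 groups is marked in this way when nothing differs. In malignant urothelial-like cells the deleted libraries lay on opposite sides of the wild-type libraries in the 2 barcode sets, by -5.42 percentage points in set 1 and 9.11 in set 2, with 2 libraries of each genotype per set. The difference between the sets was not tested for the share. Single members were fitted with an interaction term, as given above.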

How the results depend on the processing

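No paired analysis was possible because the 2 genotypes share no replicate numbers. Of 146 alternatives for shares, 128 kept the direction and the side of the threshold and 18 turned the direction. No share was past the threshold, which the number of libraries all but fixes, so this says nothing about stability. Reversed differences (percentage points, deleted minus wild type) were -0.706 in neutrophil-like cells and -3.11 in Cd8a or Cd8b1 cells with at least 500 genes, -2.38 in malignant urothelial-like cells of 1000 to 5000 UMIs, -3.51 in Cd8a or Cd8b1 cells with up to 20% mitochondrial UMIs, and 0.701 in the Ccl12-led cluster and -3.36 in Cd8a or Cd8b1 cells with ribosomal protein genes kept for clustering. Leaving out 1 library at a time gave -2.42 to 5.61 in malignant urothelial-like, -2.73 to 0.330 in monocyte/macrophage-like, -0.718 to 2.45 in dendritic-like and -2.37 to 2.94 in Cd8a or Cd8b1 cells and -0.686 to 0.916 in the Ccl12-led cluster. The number of class pairs that differed, 24 of 28, was 7 of 10 with cells of 1000 to 5000 UMIs and 13 of 15 with clustering at resolution 0.5, where fewer pairs could be compared. Of 506 alternatives for counts of called members, 481 matched the count of 0 without a batch term and 25 did not, all with the barcode set term. In T-like cells the set term gave 5 lower and 1 higher. With it, levels per 10000 ribosomal protein UMIs gave 1 lower and 3 higher of 82 members, beside 76 and 386 of 6895 genes. Summed UMIs gave 11 lower and 1 higher, beside 328 and 598 of 6895 genes. Means of deposited log values gave 4 lower, beside 175 of 6895 genes. Cells of 1000 to 5000 UMIs gave 4 lower, beside 71 of 5576 genes. Leaving out 1 library gave 1 to 13 lower and 0 to 1 higher. Over the 6975 to 7454 genes tested in those fits, 86 to 209 were lower and 98 to 255 higher. Also with it, means of deposited log values gave 2 of 82 members lower in malignant urothelial-like cells, beside 1535 of 9262 genes. They gave 9 of 80 higher in neutrophil-like cells, beside 154 of 2260 genes. Leaving out 1 library gave 0 to 1 higher and 0 to 1 lower in neutrophil-like cells. Over the 2287 to 2682 genes tested in those fits, 6 to 101 were higher and 1 to 40 lower. Counting the Ccl12-led cluster as monocyte/macrophage-like gave 10 of 81 lower there, beside 101 of 5704 genes. The cause was not tested. Fits that combine the set term with another choice, the interaction fit, the counting of the Ccl12-led cluster as monocyte/macrophage-like and the restriction to cells of at least 10000 UMIs were chosen after seeing the data. Depth was low in neutrophil-like cells, with library medians of 661.5 to 1856 UMIs, and in the Ccl12-led cluster, with 733.5 to 1424.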
